A study of Mus musculus with 3 samples.

Results

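MicroRNAs whose names carry a number of 1000 or more were described in small RNA libraries of macrophage exosomes. A name was taken as detected when its counts, summed over all 3 libraries, reached 10. By this rule 150 miRNAs were taken from the 1066 names numbered 1000 and above, among 1915 mature miRNAs in all. Of the other names in that range, 290 had a smaller summed count and 626 had no count. The summed count chose the members, so their presence and level are a description and were not tested. How a miRNA's counts were split between the libraries was not a criterion of the rule, and was tested. A high count in 1 library can still carry a member over the minimum. Without library 1, 94 of the 150 reach 10 counts, without library 2, 138, and without library 3, 129.

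The exosomes, small vesicles that cells release, came from macrophages grown out of the bone marrow of adult wild-type C57BL/6 mice. The marrow cells were cultured for 24 h with the macrophage growth factor M-CSF, then kept for 72 h in medium with exosome-depleted serum. From this medium the vesicles were pelleted by ultracentrifugation. There was 1 group of 3 libraries, here called libraries 1, 2 and 3, and neither a library of the cells nor a treated group was analysed here. Separate mice or cultures are not stated in the labels, so the spread between them may be technical. In a bulk vesicle pellet, fewer vesicles of a kind and less of a miRNA per vesicle cannot be told apart.

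A canonical miRNA is cut from a hairpin transcript by Drosha in the nucleus and by Dicer in the cytoplasm, and it recognises messenger RNAs mainly through its seed, the bases near its 5′ end. Numbers in names follow the order of naming, so high numbers belong mostly to miRNAs that were recognised in deep sequencing rather than by cloning. Some of these do not follow the canonical route: mirtrons are excised by splicing as whole short introns and bypass Drosha, and others lie inside small nucleolar RNAs, Cajal body RNAs or tRNAs, which are stable RNAs with functions of their own.

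Mature sequences of 131 of the 150 members were matched in RefSeq (assembly GRCm38.p6). They are printed 5′ to 3′ with the seed, bases 2 to 8, in capitals. The first set shows abundant members that lie in introns or near intron ends of protein-coding genes.
miR-1198-5p: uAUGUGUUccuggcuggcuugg
miR-2137: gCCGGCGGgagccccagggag
miR-1964-3p: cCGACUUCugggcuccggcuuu
miR-1981-5p: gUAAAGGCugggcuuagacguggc
The second set lies inside genes annotated as snoRNA, scaRNA or tRNA.
miR-1839-5p: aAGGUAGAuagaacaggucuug
miR-3535: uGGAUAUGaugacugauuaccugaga
miR-1843a-5p: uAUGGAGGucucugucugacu
miR-1843b-5p: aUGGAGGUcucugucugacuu
miR-3068-3p: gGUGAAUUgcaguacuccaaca
miR-3068-5p: uUGGAGUUcaugcaaguucuaacc
miR-5121: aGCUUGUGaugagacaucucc
miR-1291: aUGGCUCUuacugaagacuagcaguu
miR-1983: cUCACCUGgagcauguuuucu
The third set ends at or next to the 3′ end of an intron, where an intron closes with the bases AG.
miR-7043-3p: aCUGUGCCucucuguuuucag
miR-7091-3p: aGUGGCUUcugucgucucuag
miR-7030-3p: cUUGCUCUguuaucucuccag
miR-6988-3p: uGACCUCUguaucuccugccag
miR-6967-3p: uCAUCUUUaucucuccccag

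The tables held 3008995, 2489984 and 3208617 miRNA counts in libraries 1, 2 and 3. Counts were scaled to these totals as counts per 1000000 miRNA counts (CPM), and a miRNA with 0 counts could have had up to 0.997, 1.20 and 0.935 CPM (3 counts, counting error only). Library 1 stood apart from the others: the 5 myeloid marker miRNAs summed to 71088 CPM there, against 342525 and 299272 CPM. That sum is mostly miR-21a-5p (37316, 305278 and 261488 CPM), and miR-146a-5p was nearly level (33401, 35012 and 36543 CPM). Of the scarcer myeloid markers, miR-142a-3p (42.9, 1364 and 819 CPM) and miR-142a-5p (292, 818 and 390 CPM) were lowest in library 1. miR-223-3p had 35.6, 52.6 and 33.0 CPM. Erythroid markers (88.1, 26.9 and 15.6 CPM) and stromal markers (245, 139 and 134 CPM) were highest in library 1. Epithelial (46.5, 345 and 261 CPM), endothelial (21.6, 43.8 and 23.7 CPM) and hepatocyte markers (322, 548 and 1500 CPM) were lowest there. The lymphoid marker miR-150-5p had 0, 0 and 0.312 CPM. The part of these differences in the results that follow was not tested.

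The members took up 1.20% of miRNA counts in library 1 (95% Wilson interval 1.19 to 1.22), 1.43% in library 2 (1.42 to 1.45) and 2.32% in library 3 (2.30 to 2.33), a mean of 1.65% ± 0.587 (SD, n = 3). A single member, miR-5099, made up 2.14%, 67.9% and 83.6% of the member counts. Without it the order of the libraries turned round, with shares of 1.18%, 0.460% and 0.380% (mean 0.673% ± 0.440, SD, n = 3). The 12 most abundant members held 89.1%, 94.8% and 97.0% of the member counts.

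Most members were scarce. Their median level was 3.52 CPM, against 15.8 CPM over all 468 miRNAs that reached the same summed count and 33.8 CPM over the 318 of them with lower numbers or let-7 names. Of the 150 members, 114 had a mean below 10 CPM, 10 reached 100 CPM and 4 reached 1000 CPM. A count was present in 148, 144 and 146 members in libraries 1, 2 and 3 and in all libraries in 139, or 92.7%, where the background was 96.4%, while 40 had at least 10 counts in every library. At the threshold itself, miR-5100, miR-5128, miR-7068-5p and miR-7655-3p stood just inside with 10 counts and miR-3079-5p with 11. Just outside were miR-5116 and miR-7059-3p with 9 counts, and miR-5107-5p, miR-5134-5p and miR-6546-3p with 8.

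The share of names detected was highest in the lowest band of numbers and lowest in the highest. Members made up 36 of 121 names below 2000, 1 of 5 from 2000 to below 3000, 34 of 155 from 3000 to below 4000, 11 of 68 from 5000 to below 6000 and 68 of 717 from 6000 upward. The 68 members of the last band together held 0.0333% ± 0.0192 of miRNA counts (SD, n = 3), and their median level was 2.76 CPM. The 36 members below 2000 held 0.386% ± 0.268 and had a median of 6.90 CPM.

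**Figure D1:**
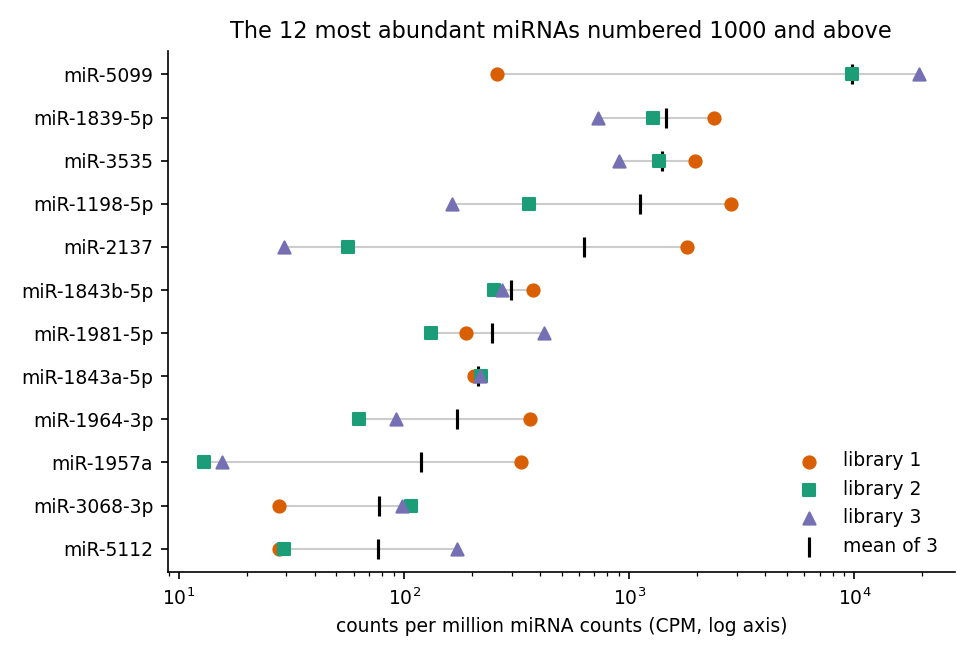
Level of the 12 most abundant members in each library (x axis, CPM on a log axis; 1 symbol per library, tick at the mean of 3). miR-5099 spans 257 to 19351 CPM, whereas the symbols of miR-1843a-5p lie between 204 and 219 CPM.

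The most abundant member was miR-5099, with 257, 9725 and 19351 CPM in libraries 1, 2 and 3. It was far lower in library 1 than in the others, and its split between libraries differed from the totals beyond counting error. Also among the 12, these members had their highest level in library 3: miR-1981-5p at 188, 132 and 418 CPM, and miR-5112 at 27.9, 29.3 and 172 CPM. Of these 3, miR-5099 and miR-5112 were lowest in library 1 and miR-1981-5p in library 2.

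Several abundant members were highest in library 1. miR-1198-5p, in an intron of Gripap1 (chrX:7807142-7807163, plus strand), had 2820, 359 and 162 CPM. miR-2137, in an intron of Zfp185 (chrX:72992113-72992133, plus strand), had 1798, 56.2 and 29.3 CPM, and is 85.7% G and C. miR-1964-3p, in an intron of Zfp84 (chr7:29773344-29773365, plus strand), had 363, 63.1 and 91.6 CPM, and miR-1957a had 329, 12.9 and 15.6 CPM. In all 4 the value of library 1 lay above both others, which were closer to each other than to it.

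A few members with a mean of at least 10 CPM were nearly level. miR-1843a-5p had 204, 219 and 218 CPM, with no call (chi-square test, Benjamini-Hochberg adjusted over all 468 miRNAs, adjusted p = 0.403). miR-1945 had 20.3, 23.7 and 21.2 CPM and was not called either (exact multinomial test with the same adjustment, adjusted p = 0.705). miR-3970 had 23.6, 15.7 and 21.2 CPM (exact test, adjusted p = 0.138), and miR-1943-5p, in an intron of Tmem184b, had 19.9, 19.7 and 15.0 CPM (exact test, adjusted p = 0.297). Also of these 6, miR-1843b-5p had 374, 250 and 272 CPM and was called (chi-square test, adjusted p = 1.9e-18). miR-1306-3p had 29.6, 18.5 and 23.7 CPM and was called as well (exact test, adjusted p = 0.0389). For the 4 without a call the evenness depends on the scaling. With TMM size factors library 1 was below the mean of the others in all 4 of them, and 3 were called. The log2 ratio was then -0.84 for miR-1843a-5p (chi-square test, adjusted p = 2.57e-34), -0.84 for miR-1945 (exact multinomial test, adjusted p = 0.00052) and -0.39 for miR-3970 (exact test, adjusted p = 0.00964). It was -0.49 for miR-1943-5p, which was not called (exact test, adjusted p = 0.0936).

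The split between the 3 libraries differed from the totals in 98 of the 150 members at an adjusted p below 0.05 (exact multinomial test up to 300 counts, chi-square test above), or 65.3%, where the background over all 468 miRNAs was 78.2%. The test compares these libraries with counting error only and says nothing of conditions. The share called followed depth. Among miRNAs with 10 to 29 counts it was 33 of 74 members and 16 of 41 others. With 30 to 99 counts it was 34 of 41 and 43 of 57, with 100 to below 1000 counts 22 of 25 and 92 of 102, and from 1000 counts 9 of 10 and 117 of 118. Without library 1, which left 94 members above the minimum, 25 were called, beside 187 of 387 over all miRNAs.

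On the CPM scale with 1 CPM added, 82 members were more than 2-fold apart between libraries 1 and 2 (background 55.1%), 94 between libraries 1 and 3 (background 62.6%) and 30 between libraries 2 and 3 (background 23.7%). These are shares of 54.7%, 62.7% and 20%, near the background in each pair. Library 1 was more than 2-fold above library 2 in 67 members (background 40.6%) and below it in 15 (background 14.5%). It was above library 3 in 74 (background 46.8%) and below it in 20 (background 15.8%). Library 2 was above library 3 in 17 (background 15.2%) and below it in 13 (background 8.55%). With TMM factors these counts were 46 above and 23 below for libraries 1 and 2, 43 and 29 for libraries 1 and 3, and 13 and 21 for libraries 2 and 3, where the balance turned. With the RPM denominators it turned there too, at 2 and 9. These counts have no share over all miRNAs beside them, so the turn cannot be read as particular to the members. With TMM factors library 1 was more than 2-fold above the mean of the others in 40 members and below it in 26. Over all 468 miRNAs these were 114 and 118. The members' median log2 ratio was 0.89 for library 1 over library 2, 0.97 for library 1 over library 3 and 0.08 for library 2 over library 3, where all miRNAs gave 0.73, 0.90 and 0.16. The last of these changed sign with TMM or DESeq2 size factors (-0.11 and -0.091).

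Library 1 held the highest level of 102 members, or 68%, where the background was 61.3%. With TMM or DESeq2 size factors the number was 78 members in either case, beside 218 or 216 of all 468 miRNAs. Library 1 itself carried members over the minimum, since only 94 of the 150 reach 10 counts without it. On the CPM scale it was highest in 52 of 74 members and 22 of 41 others with 10 to 29 counts. With 30 to 99 counts these were 29 of 41 and 30 of 57. From 100 to below 1000 counts they were 14 of 25 and 63 of 102, and from 1000 counts 7 of 10 and 70 of 118. The highest level was in library 2 for 23 members (background 19.7%) and in library 3 for 25 (background 19%). The lowest was in library 1 for 28 (background 25.2%), in library 2 for 57 (background 29.1%) and in library 3 for 65 (background 45.7%). In 74 members library 1 was above both others and the split was called (background 51.1%). The median log2 ratio of library 1 to the mean of the others was 0.92 over the members and 0.74 over all miRNAs on the CPM scale, and 0.32 and 0.16 with TMM factors.

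Correlation across miRNAs, which are not independent replicates, gives the same order of pairs. Pearson's r of log2(CPM + 1) over the 150 members was 0.76 for libraries 1 and 2, 0.71 for libraries 1 and 3 and 0.92 for libraries 2 and 3, and over all 468 miRNAs 0.91, 0.89 and 0.97. The members span a narrower and lower range of levels than the whole set. The coefficient of variation between libraries from edgeR's common dispersion was 83.7% for the members and 74.2% for the others, and 45.2% and 42.4% without library 1.

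**Figure D2:**
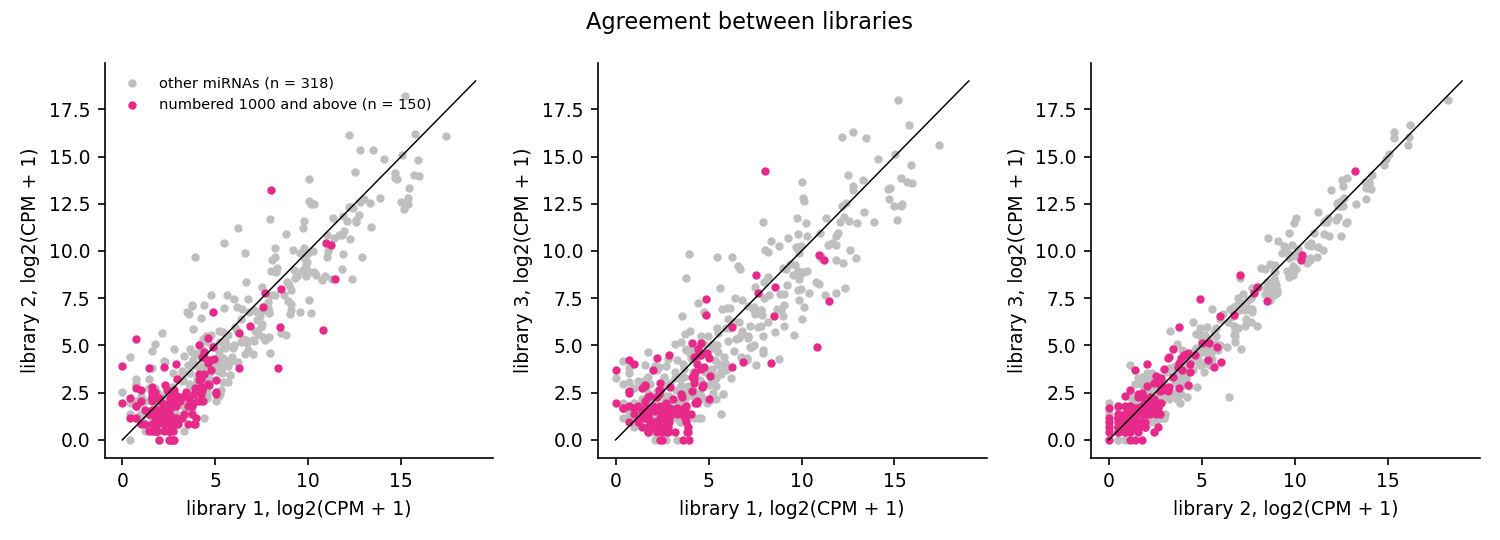
Each pair of libraries plotted as log2(CPM + 1), with 1 point per miRNA, members in pink and the other 318 miRNAs in grey, and the line of equal level. Members cluster at the low end, and those of libraries 2 and 3 lie closest to the line (r = 0.92).

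Members were grouped by what the annotation places at their hairpin. The first group, 17 members inside genes annotated as snoRNA, scaRNA or tRNA, took 0.511%, 0.338% and 0.229% of miRNA counts. Of the member counts, where miR-5099 weighs in libraries 2 and 3, these are 42.5%, 23.6% and 9.91%. They were 13.0% of members with a sequence, beside 1.37% of the other detected miRNAs and 0.376% of the later-numbered names that were not members. Of the 17, 13 were called different between libraries (78.2% over all miRNAs), and 6 of 14 without library 1 (187 of 387 over all), which is near the background in both. The highest level was in library 1 for 8 (61.3% over all) and in library 2 for 8 (19.7% over all). The group's median log2 ratio of library 1 to the mean of the others was 0.24, and -0.42 with TMM factors.

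In this group miR-1839-5p (chr7:81529919-81529940, plus strand), in a hairpin annotated as a scaRNA within an exon of 2900076A07Rik, had 2384, 1276 and 727 CPM. miR-3535 (chr1:86352062-86352087, minus strand), in the snoRNA gene Gm24148 within Ncl, the gene of the nucleolar protein nucleolin, had 1957, 1356 and 897 CPM. miR-5121 (chr7:45126925-45126945, minus strand), in Snord33 within the ribosomal protein gene Rpl13a, had 116, 65.1 and 16.2 CPM. On the CPM scale all 3 had the same order of libraries, highest in library 1 and lowest in library 3. The log2 ratio of library 1 to the mean of the others was 1.25, 0.80 and 1.49 in this sequence of members. With TMM factors it was 0.54, 0.08 and 0.84, so the lead of library 1 in miR-3535 depends on the scaling.

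Others of the group ran the other way. miR-3068-3p (chr12:87437685-87437706, minus strand), in a snoRNA-typed hairpin within Alkbh1, had 27.9, 107 and 97.9 CPM, and its partner miR-3068-5p had 0.665, 39.8 and 17.8 CPM. miR-1291 (chr15:98519828-98519853, minus strand), in Snora34 within an intron of Kansl2, had 0, 35 and 38 counts. miR-6516-5p, in the scaRNA gene Gm26083 within Snhg20, had 5, 32 and 18 counts. These 4 were lowest in library 1 and all were called, miR-1291 at an adjusted p of 8.96e-09 and miR-6516-5p at 2.05e-06 (exact multinomial test).

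miR-1843a-5p and miR-1843b-5p come from the related genes Scarna3b (chr12:80391654-80391674, minus strand) and Scarna3a (chr1:159340362-159340382, plus strand, in an intron of Cop1). As printed above they share a run of 20 bases but are offset by 1 base, so their seeds differ and a trimmed read could be counted for either. miR-1843b-5p had 374, 250 and 272 CPM. miR-1983 (chr13:21896930-21896950, minus strand) overlaps a RefSeq tRNA, n-TItat14, whose strand the table does not give, and had 18.3, 19.7 and 10.9 CPM. Whether these counts come from processed miRNA or from fragments of the longer RNA was not tested.

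The second group, 28 members, begins or ends at the edge of an intron, the place of a mirtron. Of these, 25 were 3p arms and 21 ended in AG, among them the 5 printed above. Such members were 21.4% of those with a sequence, against 1.72% of the other detected miRNAs and 24.2% of the later-numbered names that were not members. The group held little RNA, at 0.0390%, 0.0247% and 0.0487% of miRNA counts, with a median of 2.65 CPM. In 20 of 28 library 1 was highest (61.3% over all miRNAs). Of the 28, 14 were called (78.2% over all), and 4 of 16 without library 1 (187 of 387 over all).

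The most abundant of the group, miR-1981-5p (chr1:184822465-184822488, minus strand), starts an intron of Marc2. Next were 3p arms that end introns. miR-7043-3p (chr6:116645978-116645998, minus strand), in Rassf4, had 227, 123 and 43 counts, and miR-7091-3p (chrX:74274027-74274047, minus strand), in Dnase1l1, had 11, 34 and 62. On the CPM scale the 2 differ in order, the first being highest in library 1 and the second in library 3. Their log2 ratios of library 1 to the mean of the others were 1.24 and -1.91, and 0.58 and -2.54 with TMM factors. The lead of library 1 in miR-7043-3p thus depends on the scaling. miR-7118-3p, in Plxnb2, had 41, 11 and 1 counts, miR-6967-3p, in Kifc5b and Kifc1, had 42, 2 and 2, and miR-7030-3p, in Rab35, had 35, 7 and 7. These 3 were highest in library 1. The mirtron names miR-1224-5p and miR-1224-3p had no count, and miR-1982-3p and miR-1982-5p had 4 counts and 1 count in all.

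**Figure D3:**
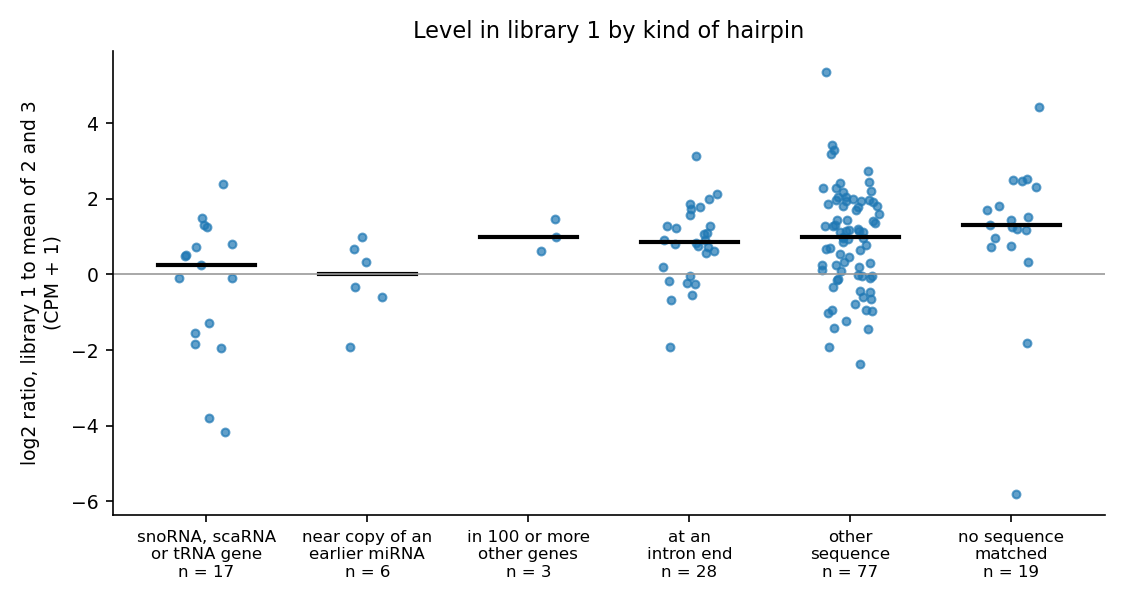
Log2 ratio of library 1 to the mean of libraries 2 and 3 (y axis, with 1 CPM added) for each member, by what lies at its hairpin, with the group median as a bar. The medians run from near 0 for near copies and 0.24 for small RNA genes to 1.00 for other sequences and 1.32 for members with no sequence matched, and with TMM factors these 4 are -0.43, -0.42, 0.48 and 0.80.

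Another 6 members differ from a well-known miRNA by only 1 or 2 bases over a window of 17 to 21 bases. Each is printed with its counterpart, so that the similarity can be seen.
miR-3962: aGGUAGUAguuuguacauuu
let-7g-5p: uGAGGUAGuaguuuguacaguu
miR-3964: aUAAGGUAgaaagcacuaaa
miR-3969: cCCUAAAGuagaaaucacua
miR-142a-5p: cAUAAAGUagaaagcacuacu
miR-3965: uGCUUAUCagccugauguu
miR-3967: aGCUUGUCugacugauguug
miR-21a-5p: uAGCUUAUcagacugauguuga
miR-3966: aGCUGCCAgcuguagaacugu
miR-22-3p: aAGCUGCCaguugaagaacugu
The capitals fall at shifted places, so none of the 6 has the seed of its counterpart.

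miR-3967 had 2, 14 and 16 counts and was called (exact multinomial test, adjusted p = 0.00419). Its counterpart miR-21a-5p, a miRNA abundant in myeloid cells, had 37316, 305278 and 261488 CPM. Both were lowest in library 1. Per 100000 counts of miR-21a-5p this is 1.78, 1.84 and 1.91 counts of miR-3967. The first value rests on 2 counts, so how level the ratio is cannot be judged. The other near copy of miR-21a-5p, miR-3965, had 5.34, 1.32 and 1.19 per 100000, higher in library 1, on 6, 10 and 10 counts.

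miR-3969 was the most abundant near copy, with 25.3, 18.1 and 6.54 CPM, while miR-142a-5p, of a locus active in blood cells, had 292, 818 and 390 CPM. Its ratio was thus not level, at 8646, 2208 and 1680 per 100000. miR-3964, on 5, 4 and 2 counts, stood at 569, 196 and 160 per 100000 of miR-142a-5p. miR-3962 stood at 30.5, 13.2 and 6.16 per 100000 of let-7g-5p, and miR-3966 at 46.1, 94.7 and 43.3 per 100000 of miR-22-3p. Of the 6, 2 were called (78.2% over all miRNAs), and all but miR-3969 had at most 32 counts in sum. How the authors' counting treated a read with a mismatch was not given in the sources used here, so these counts are uncertain.

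**Figure D4:**
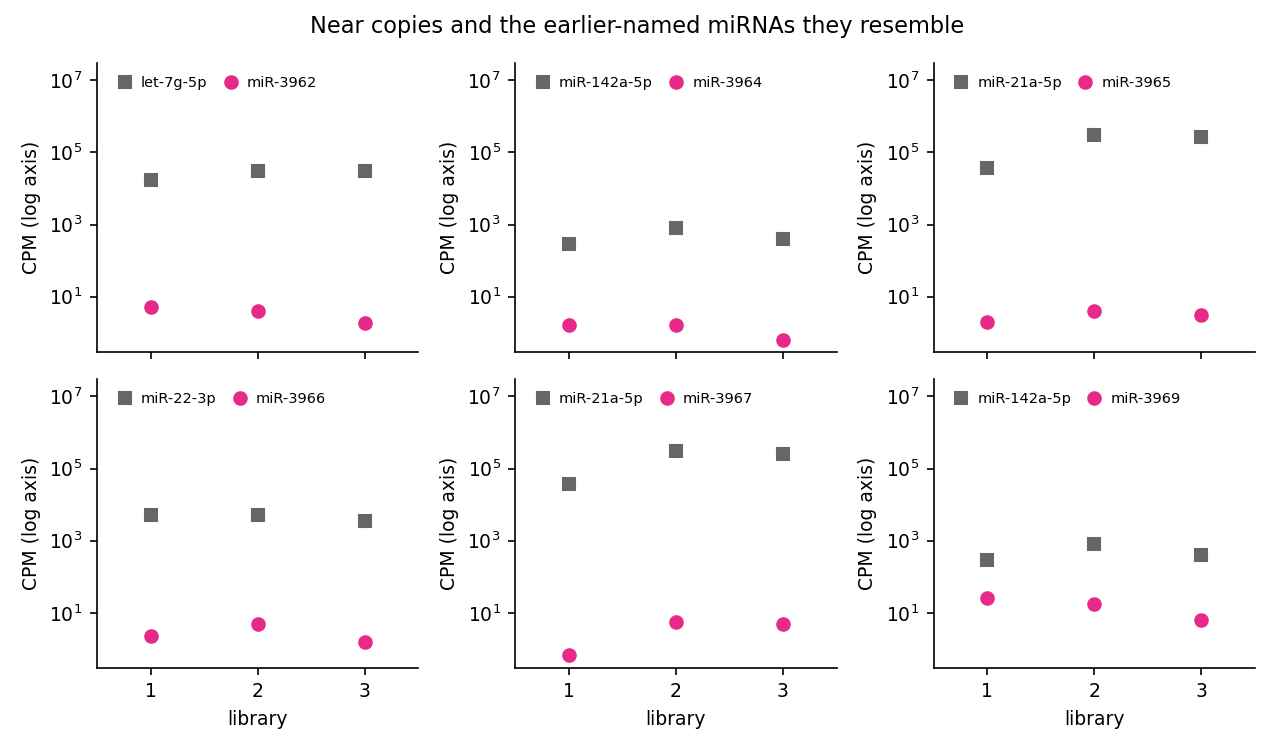
CPM of each near copy (pink circles) and of the miRNA it resembles (grey squares) in libraries 1, 2 and 3, on a log axis. miR-3967 and miR-21a-5p are both lowest in library 1, whereas miR-3969 is highest there and miR-142a-5p lowest.

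In 3 members the mature sequence was found in 100 or more other annotated genes. miR-3473b was found in 343, miR-3470b in 546 and miR-3473a in 146 genes.
miR-3473a: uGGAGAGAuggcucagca
miR-3473b: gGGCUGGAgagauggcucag
miR-3470b: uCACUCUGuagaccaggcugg
miR-3473b had 227, 32 and 201 counts, and miR-3470b had 54, 11 and 23, both lowest in library 2. With so many matches their counts cannot be assigned to 1 locus. Other members of the miR-3473 family had few or no counts: miR-3473g had 31 counts in all, miR-3473d 7, miR-3473e 2, and miR-3473c and miR-3473f none.

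miR-3074-5p lies on the strand opposite miR-24, on chromosomes 8 and 13. A stretch of 20 bases is the exact reverse complement of miR-24-3p.
miR-3074-5p: gUUCCUGCugaacugagccagu
miR-24-3p: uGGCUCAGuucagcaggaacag
miR-3074-5p had 95, 11 and 11 counts (31.6, 4.42 and 3.43 CPM) and miR-24-3p 62482, 16072 and 12391 CPM, both highest in library 1. The split of miR-3074-5p was called (exact multinomial test, adjusted p = 5.06e-23).

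The seeds of the 131 members with a sequence were all different from each other. Shared with detected miRNAs of lower number were 2 seeds.
miR-5129-3p: aAUGUGCCugugcaucucuucc
miR-455-5p: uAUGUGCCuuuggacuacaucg
miR-1928: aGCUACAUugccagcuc
miR-221-3p: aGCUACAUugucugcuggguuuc
miR-222-3p: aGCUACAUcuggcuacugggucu
miR-5129-3p, in an intron of Zeb2, had 17.9, 6.02 and 8.73 CPM and miR-455-5p 10.6, 14.9 and 6.54 CPM, so the first was higher in libraries 1 and 3 and the second in library 2. miR-1928 had 8, 5 and 2 counts, far below miR-221-3p, whose mean was 17898 CPM. miR-1938 and miR-5107-3p carried identical counts of 14, 4 and 3.

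The members had a median of 52.4% G and C, between the other detected miRNAs at 47.6% and the undetected or scarcer later names at 56.5%. Uracil, the usual first base of canonical miRNAs, began 45.8% of member sequences and 40.5% of the others. Below 45% G and C the median log2 ratio of library 1 to the others was -0.27 (20 members). It was 0.95 from 45% to below 55% (58 members), 0.58 from 55% to below 65% (40 members) and 1.44 from 65% upward (13 members, 12 of them highest in library 1). The members' medians thus did not rise at each step, while the other detected miRNAs gave -0.15, 0.61, 1.21 and 1.98. Spearman's rho across miRNAs was 0.28 over 131 members and 0.36 over 291 others, a description over the same 3 libraries. The exception in the upper band was miR-6538, 94.7% G and C, with 20.3, 10.0 and 27.1 CPM.

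Both arms of a hairpin were in the tables for 89 hairpins with a member arm. The 3p arm was higher in 50 and the 5p arm in 39, the same arm was higher in all libraries in 71, and the other arm had no count in 34. Both arms were members in 14. miR-1839 and miR-1198 gave almost only their 5p arm, at 7174, 3177 and 2333 counts against 14, 7 and 6 for the first and 8485, 895 and 521 against 4, 5 and 3 for the second. miR-7091 changed its higher arm, with a 5p share of 64.5%, 22.7% and 10.1% (20 5p and 11 3p counts in library 1), and miR-1934 had 69.2%, 50% and 23.5% on few counts. In miR-3068 the 5p share was 2.33%, 27.0% and 15.4%. No test was made of these shares.

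**Figure D5:**
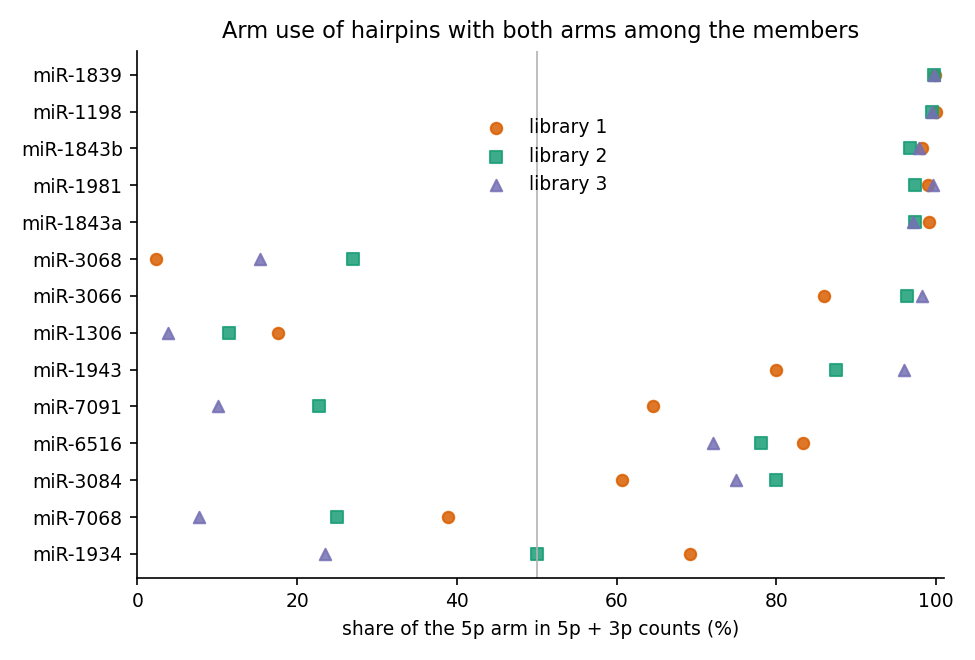
Share of the 5p arm in 5p and 3p counts (x axis, %) for the 14 hairpins with both arms among the members, 1 symbol per library. The symbols of miR-1839, miR-1198, miR-1843a, miR-1843b and miR-1981 lie close together. Those of the other hairpins spread more, most widely in miR-7091 (10.1 to 64.5%) and miR-1934 (23.5 to 69.2%).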

How the data were processed

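Small RNA libraries were prepared from exosome RNA with the NEBNext kit and sequenced as single-end reads, per the labels' protocols. The authors deposited a whole-number count for each of 1915 mature miRNAs in each library, and beside it an RPM. Bcl2fastq, BWA and mm10 are named in the submitters' processing notes. Trimming, mismatch limits and the annotation release are not given in the sources used here. The RPM of the authors divides by 14047692, 13995845 and 14002577, of which miRNA counts are 21.4%, 17.8% and 22.9%, so counts were scaled to the miRNA total instead and the RPM denominators served as an alternative.

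The members and lists were chosen with earlier results of these data known. The split of each miRNA was tested over the 468 miRNAs that reached 10 counts in sum, with Benjamini-Hochberg adjustment at 0.05. Counts were simulated for 460 miRNAs with counting error only, at the depths of all miRNAs tested. Changes of 1.5-fold were called in 55.4%, of 2-fold in 68.7% and of 4-fold in 97.0% of cases, beside 3 of 262 unchanged miRNAs. The median summed count was 139.5 over all 468 and 31 over the members, so these rates are not those of the members. Wilson intervals and floors cover counting error only, since PCR products were counted without molecular identifiers. edgeR 4.0.16 gave TMM factors and the dispersion, DESeq2 1.42.0 its size factors (R 4.3.3), and scipy 1.17.1 the tests.

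Named miRNAs were the 12 most abundant members, the 6 widest and 6 narrowest in range above a mean of 10 CPM, those sharing a seed, the 6 most abundant hairpins with both arms, the 6 in most places, a list of known origins and those at the threshold. Other members named as examples of a group were chosen after their values were seen. Places were counted in annotated transcripts (GENCODE release 21 for mouse), because no genome sequence was used here. The groups by origin, with their limits of 2 bases from an intron end, 17 bases for near copies and 100 genes for repeated sequences, were chosen after seeing the data. Positions and sequences of the miRNAs are from RefSeq and are on GRCm38.p6. Host genes, exons and intron ends are from the same GENCODE release, and small RNA genes from GENCODE or RefSeq. For miR-1839-5p, miR-3535, both arms of miR-3068 and miR-6516-5p, the snoRNA or scaRNA type was found in GENCODE only.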

Additional observations from a re-analysis of the deposited data

How the results depend on the processing

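Depth limits the scarce members, since 114 of the 150 average below 10 CPM, and the spread between libraries goes beyond counting error. No paired analysis was possible because there is 1 group. The alternative of members with exactly 1 place in the genome was not run, since no genome sequence was used here. Members called numbered 65 of 76 at a summed count of at least 30 (318 of 353 over all miRNAs), and 25 of 94 to 90 of 138 when each library was left out (187 of 387 and 334 of 446 over all), the lowest without library 1. They were 86 with TMM factors, 86 with DESeq2 size factors and 100 with the RPM denominators (355, 354 and 372 of 468 over all), and 112 of 440 with no minimum (387 of 886 over all). The share of the members was 0.348% ± 0.158 with the RPM denominators and 0.673% without miR-5099. Median log2 ratios of libraries 1 over 2, 1 over 3 and 2 over 3 were 0.44, 0.30 and -0.11 with TMM factors, 0.40, 0.29 and -0.091 with DESeq2 size factors, and 0.59, 0.48 and -0.090 with the RPM denominators. With 0.5 CPM added the first 2 were 1.04 and 1.12. Members more than 2-fold apart numbered 45, 43 and 11 with the RPM denominators, and 44 (libraries 1 and 2) and 52 (libraries 1 and 3) of 76 at a summed count of at least 30. These have no count over all miRNAs beside them. The coefficient of variation of the members was 73.4% with TMM factors and 45.2% to 96.1% when each library was left out, and that of the other miRNAs 42.4% to 86.6%. The changes of sign follow the scaling, and what sets the difference between scalings was not tested.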
